A study of Mus musculus with 3 samples.

Results

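The genes described here encode subunits of the ATP-dependent chromatin remodelling complexes, and their mRNA was compared between mouse embryonic stem (ES) cells and splenic lymphocytes. The 42 members were fixed by name, 20 of the SWI/SNF family, 6 of the ISWI family, 11 of the CHD family with the Mta scaffolds, 3 of the INO80 family, and Hells and Atrx, out of 18193 genes with a probe set of a single gene symbol. Each gene was read from its brightest probe set, the one with the highest mean over the 3 arrays, and the 42 members had 108 probe sets in all. The study hybridised 1 array to each of 3 populations of the C57BL/6 strain, so no difference below has a replicate check and no test was possible. ES cells of the line B6N-22, a single line, were cultured on feeder fibroblasts inactivated with mitomycin C, in serum medium with leukemia inhibitory factor. Splenic B cells (B220) and splenic T cells (CD4) were taken from mice of 6 to 8 weeks of age and selected with magnetic beads to more than 98% purity, per the labels. The sources used here do not say whether the feeder cells were taken out, or how many mice gave each lymphocyte sample. The series title places the arrays in a study of Polycomb and Trithorax complexes in T lymphocytes, and SWI/SNF genes belong to the Trithorax group.

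Chromatin remodelling complexes use the energy of ATP to slide, eject or exchange nucleosomes, and each family is defined by the kind of ATPase at its core. SWI/SNF complexes open chromatin at enhancers and promoters, ISWI complexes space nucleosomes in regular arrays, CHD proteins carry chromodomains and include the ATPases of the deacetylase complex NuRD, and INO80 complexes exchange histone variants. Many subunits are encoded by paralogs that occupy the same position in the complex, so that cell types can assemble different versions. ES cells are known for a SWI/SNF version built on Smarca4, Smarcc1 and Smarcd1, and mature cells also use Smarca2 and Smarcc2.

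The arrays carried the identity genes of their labels. All 10 ES cell markers were detected in ES cells, with a summed signal of 112731 there, against 524 in B and 361 in T cells. The 9 measured B cell markers summed to 123065 in B cells and 5620 in T cells, and the 9 T cell markers to 83976 in T cells and 1352 in B cells. Markers of other cells were also present: all 11 fibroblast markers were above detection in ES cells, with a summed signal of 106765, against 4 above and 7897 in B cells and 2 above and 9306 in T cells. Of the 12 macrophage markers, 8, 12 and 11 were above detection in ES, B and T cells, and they summed to 4331, 28791 and 69528. In the same order the summed signals were 652, 3737 and 6237 for NK and cytotoxic cells, 232, 6898 and 13880 for neutrophils, 278, 501 and 653 for erythroid cells, and 8480, 38564 and 19636 for plasma cells. Few genes carried some of these sums. Vim gave 7138 of the fibroblast sum in B and 8743 in T cells, and Xbp1 6741 of the plasma cell sum in ES cells. S100a8 and S100a9 gave 3966 and 2444 of the neutrophil sum in B cells, and 8945 and 4451 in T cells. The other measured neutrophil markers lay near or below the detection level. The part of RNA from such other cells in the values of the remodelling genes was not tested.

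Most remodelling genes were detected in all 3 populations. Of the 42 members, 40, 38 and 37 were above detection in ES, B and T cells, against 60.3%, 57.8% and 56.8% of all genes. The detection level was a signal of 95.0, the median of all values, and lower signals were raised to it before differences were taken. Where 1 of 2 arrays lay below it, the fold is only a lower limit and is written "at least". Actl6b, the actin-related subunit of neuronal SWI/SNF complexes, was the only member below the level in all arrays, with signals of 76.3 in ES, 12.9 in B and 41.1 in T cells. The plot of signals by gene shows how the ES cell values fell on either side of the lymphocyte values, which mostly lay close together.

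**Figure D1:**
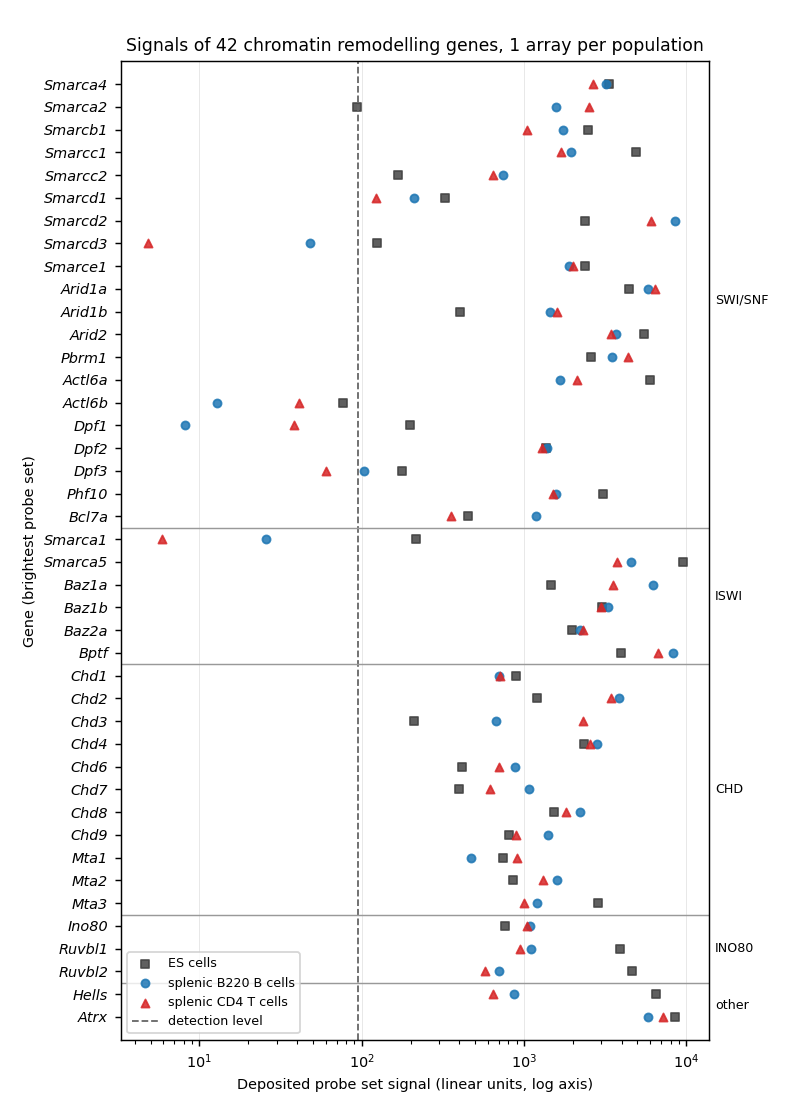
Deposited signal (linear units on a log axis) of the brightest probe set of each of the 42 genes in ES cells (squares), B cells (circles) and T cells (triangles), 1 array each, with the detection level of 95.0 dashed and families separated by lines. Signals are comparable along a row and not between rows; Smarca2 and Chd3 are far to the right in lymphocytes, and Hells and Ruvbl2 far to the right in ES cells.

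Against ES cells, about as many remodelling genes lay within 2-fold as genes in general, 53.7% against 52.6% in T cells and 51.2% against 54.3% in B cells. In T cells, 7 of 41 measured members (17.1%) were at least 2-fold higher than in ES cells and 12 (29.3%) at least 2-fold lower, where 22.7% and 24.7% of all 12325 measured genes were. In B cells, 11 of 41 (26.8%) were at least 2-fold higher and 9 (22.0%) at least 2-fold lower, against 21.1% and 24.6% of 12463 genes. At 4-fold, 2 members (4.88%) were higher and 3 (7.32%) lower in T cells, against 10.8% and 10.2% of all genes, and 3 (7.32%) were higher and 2 (4.88%) lower in B cells, against 9.85% and 10.3%. The median log2 difference of the members was -0.08 in T cells and 0.01 in B cells, beside -0.11 and -0.07 over all genes. At 2-fold these shares lie near the background, and at 4-fold they lie below it. With the mean of all probe sets of a gene in place of the brightest, 5 members lay 2-fold or more below ES cells in T cells and 5 in B cells. The lower counts thus depend on how probe sets are used. This mean includes probe sets below detection, raised to that level, which shrinks differences. Over all genes the lower calls fell too, from 3041 to 2352 in T cells and from 3063 to 2345 in B cells. Both comparisons share the single ES cell array, so they are not independent of each other.

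In both lymphocyte arrays, 9 of the 41 members (22.0%) were at least 2-fold below ES cells, against 21.6% of 12012 genes, and 7 (17.1%) at least 2-fold above, against 17.3%. The 9 were Actl6a, Dpf1, Hells, Mta3, Ruvbl1, Ruvbl2, Smarca1, Smarca5 and Smarcc1. With the mean of all probe sets the 9 became 4. Without probe sets of names ending in _s_at or _x_at, which turns the direction of Mta3, 8 members were below in both and 8 above. With quantile normalization Smarca5 was no longer counted, at -0.76 on the log2 scale in B cells. The 7 were Arid1b, Baz1a, Chd2, Chd3, Smarca2, Smarcc2 and Smarcd2. Each of the 7 has a paralog that it was set against, in the same order Arid1a, Baz1b, Chd1, Chd4, Smarca4, Smarcc1 and Smarcd1. On their brightest probe sets 0 of these partners were at least 2-fold higher in either lymphocyte array, where 22.7% (T cells) and 21.1% (B cells) of all genes were. Other probe sets passed 2-fold for Arid1a, at 1.08 in T cells on the log2 scale, and for Chd1, at 1.16 in T and 1.5 in B cells. The partners were reached through the called genes, from pairs chosen with earlier results of these data known. Their count is therefore a description and tests nothing. In another of the pairs, Chd6 and Chd7 were both at least 2-fold higher in B cells, at 1.08 and 1.42 on the log2 scale. A lower signal in a population can come from fewer cells with the transcript or from less transcript per cell, and these cannot be told apart in bulk RNA.

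**Figure D2:**
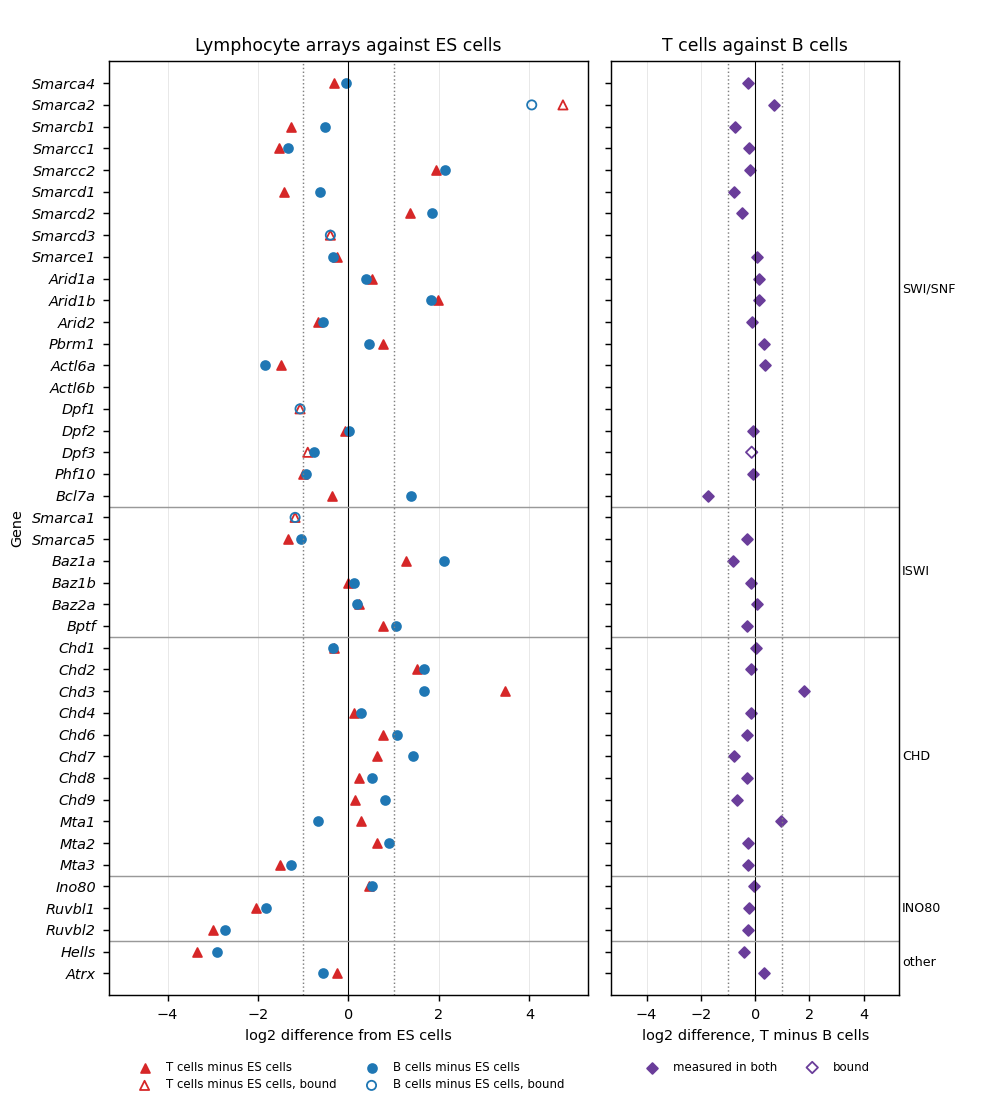
The log2 difference of each gene from ES cells (left: T cells as triangles, B cells as circles) and between T and B cells (right: diamonds), with dotted lines at 2-fold and open symbols for bounds against an array below detection. T and B cell symbols lie near each other in most rows on the left, and on the right Chd3 and Bcl7a lie outside the dotted lines.

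The difference between 2 probe sets of a gene was the only error that could be estimated. Over 3927 genes with 2 probe sets above detection in both arrays, the T cell to ES cell differences of the 2 brightest probe sets disagreed by a median of 0.46 on the log2 scale, with an SD of 0.88, and by at least 1 in 21.2% of genes. For B cells the median was 0.41 and the SD 0.85 (3887 genes), and between T and B cells 0.28 and 0.49 (4555 genes). Of the 19 members called in T cells, 12 had more than 1 measured probe set, and in 4 of them, Smarca2, Smarcc1, Baz1a and Chd2, all measured probe sets were at least 2-fold the same way. In B cells these 4 and Hells did so, 5 of 13. Smarca5 and Mta3 had probe sets at least 2-fold in opposite directions in both comparisons.

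**Figure D3:**
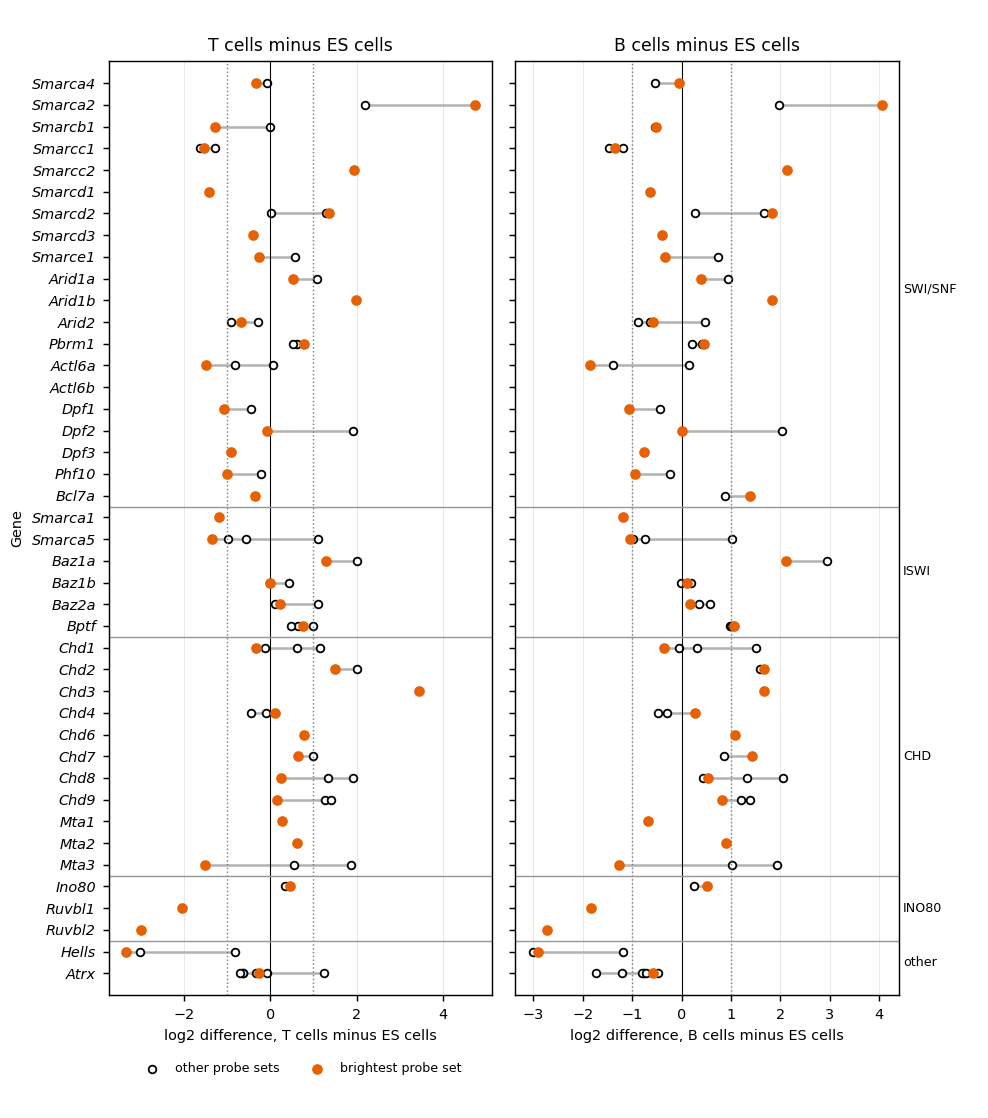
The log2 difference from ES cells of every measured probe set of each gene (open circles) and of the brightest one (filled), joined by a grey bar, for T cells (left) and B cells (right), with dotted lines at 2-fold and signals below detection raised to that level. The bars of Mta3 and Smarca5 cross from below -1 to above 1 in both panels, and those of Smarcc1, Baz1a and Chd2 stay beyond 1 line.

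Among SWI/SNF genes, the ATPase pair differed most. Smarca4 and Smarca2 encode the alternative motors of the complex. Here and below, where a pair of folds or log2 differences from ES cells is given together, the value for T cells comes first and that for B cells second, and signals are in the order ES, B and T cells. The signals of Smarca4 were 3331 in ES, 3190.5 in B and 2648 in T cells, or log2 differences from ES cells of -0.33 in T and -0.06 in B cells. Smarca2 had signals of 93.2 in ES, 1569.8 in B and 2531 in T cells. It was just under the detection level in ES cells, so that the excess was at least 26.6-fold in T and at least 16.5-fold in B cells, and 214 and 345 measured genes had a greater difference. Its other probe set was dimmer, with log2 differences of at least 2.19 and 1.97. The shift of Smarca2 relative to Smarca4, the largest of the pairs, was at least 33.5-fold in T cells and at least 17.3-fold in B cells. A constant factor per array cancels in a shift between paralogs that are both above detection in both arrays. Smarca2 was not above detection in ES cells, so this does not hold for its bounds against ES cells.

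The scaffold pair shifted in the same sense as the motors. Smarcc1 and Smarcc2 form the dimer on which the complex is assembled. Smarcc1 had signals of 4899 in ES, 1941 in B and 1682 in T cells, 2.91-fold lower in T cells and 2.52-fold lower in B cells, and its 3 measured probe sets ranged from -1.63 to -1.27 and from -1.47 to -1.19 on the log2 scale. Smarcc2 had signals of 168 in ES, 738 in B and 641 in T cells, 3.82-fold and 4.4-fold higher, from its only measured probe set. Smarcc2 thus gained on Smarcc1 by 11.1-fold in each lymphocyte array, and the pair did not shift between T and B cells (0.00 on the log2 scale).

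The promoters of these 2 pairs are shown because they had the largest paralog shifts among pairs with promoter sequences. Each sequence is the 250 bases upstream of the RefSeq transcription start on GRCm38.p6, written 5′ to 3′ on the gene's strand, with capitals for any match to the motif words named with the promoters of Hells and Ruvbl2. All 4 genes lie on the plus strand, Smarca4 at chr9:21615919-21616168, Smarca2 at chr19:26604910-26605159, Smarcc1 at chr9:110131774-110132023 and Smarcc2 at chr10:128458986-128459235. None of the 4 windows held any of the words. Their GC contents were 70.8%, 68.4%, 63.6% and 80.8% in that order, beside a median of 65.8% over all member windows. Smarcc1, higher in ES cells, and Smarca2 and Smarcc2, higher in lymphocytes, thus all had GC-rich promoters, as did Smarca4, which was within 2-fold.
Smarca4: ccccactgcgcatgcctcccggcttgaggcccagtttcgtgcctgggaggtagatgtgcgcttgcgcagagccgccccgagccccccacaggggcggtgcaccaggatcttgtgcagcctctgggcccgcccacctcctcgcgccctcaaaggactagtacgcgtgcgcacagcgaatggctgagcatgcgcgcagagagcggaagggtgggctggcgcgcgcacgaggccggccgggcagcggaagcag
Smarca2: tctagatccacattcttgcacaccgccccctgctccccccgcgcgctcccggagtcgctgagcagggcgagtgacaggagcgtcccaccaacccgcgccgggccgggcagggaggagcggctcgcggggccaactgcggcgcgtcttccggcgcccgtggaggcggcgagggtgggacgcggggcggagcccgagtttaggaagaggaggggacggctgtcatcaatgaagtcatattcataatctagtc
Smarcc1: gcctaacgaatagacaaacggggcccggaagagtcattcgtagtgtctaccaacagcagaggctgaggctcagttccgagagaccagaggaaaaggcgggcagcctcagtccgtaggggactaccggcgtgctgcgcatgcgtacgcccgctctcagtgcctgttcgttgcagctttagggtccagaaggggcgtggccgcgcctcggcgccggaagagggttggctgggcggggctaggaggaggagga
Smarcc2: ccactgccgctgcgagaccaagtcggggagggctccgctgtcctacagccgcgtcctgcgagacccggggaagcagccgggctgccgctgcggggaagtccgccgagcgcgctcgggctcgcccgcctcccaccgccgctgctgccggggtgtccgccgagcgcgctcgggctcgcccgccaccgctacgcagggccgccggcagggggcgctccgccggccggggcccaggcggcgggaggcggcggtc

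The Smarcd and Arid subunits also shifted between paralogs. The Smarcd proteins link the complex to transcription factors. Smarcd1 had signals of 328 in ES, 211 in B and 122 in T cells, 2.68-fold lower in T cells and 1.56-fold lower in B cells. Smarcd2, a form known from blood cells, had signals of 2376 in ES, 8531 in B and 6094 in T cells, 2.56-fold and 3.59-fold higher, although its probe sets ranged from 0.02 to 1.36 in T cells and from 0.28 to 1.84 in B cells. Smarcd3, the form of heart and muscle, was above detection only in ES cells, with signals of 125 in ES, 48.3 in B and 4.8 in T cells. Smarcd2 gained on Smarcd1 by 6.87-fold in T cells and 5.59-fold in B cells. The T cell signal of Smarcd1 was near the detection level of 95.0, which leaves the size of the shift there uncertain.

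Arid1a and Arid1b are mutually exclusive DNA-binding subunits of the canonical complex. The signals of Arid1a were 4446 in ES, 5829 in B and 6424 in T cells, within 2-fold of each other. Its other probe set differed from ES cells by 1.08 and 0.94 on the log2 scale. Arid1b had signals of 405 in ES, 1438 in B and 1599 in T cells, 3.95-fold and 3.55-fold higher in T and B cells from 1 probe set. The shift toward Arid1b was 2.73-fold in T cells and 2.71-fold in B cells, the smallest of the 4 SWI/SNF shifts named so far.

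The plot of paralog shifts sets these pairs beside those of the other families. The 24 pairs were chosen with earlier results of these data known. Both paralogs were above detection in both arrays for 16 pairs in T against ES cells, 17 in B against ES cells and 17 between T and B cells. Of these, 8, 8 and 3 shifted by at least 2-fold, some of them pairs of Mta3, whose direction rests on the choice of probe set. Beside them, the 2 brightest probe sets of a gene disagreed by at least 2-fold in 21.2%, 18.7% and 4.46% of genes. No share over other pairs of genes was computed, so the counts have no background to be read against. A lower bound was past 2-fold for 2 further pairs in T cells, Smarca4 with Smarca2 and Smarcd2 with Smarcd3, and for 3 in B cells, these and Dpf2 with Dpf1. A shift was not given for 4, 2 and 6 pairs where signals below detection left it undefined. Under quantile normalization the shift of Arid1a with Arid1b fell below 2-fold in T and in B cells. That of Chd4 with Chd3 did so in B cells. In the other direction, Dpf2 with Dpf3 passed 2-fold in B cells, and Smarca4 with Smarca2 between T and B cells.

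**Figure D4:**
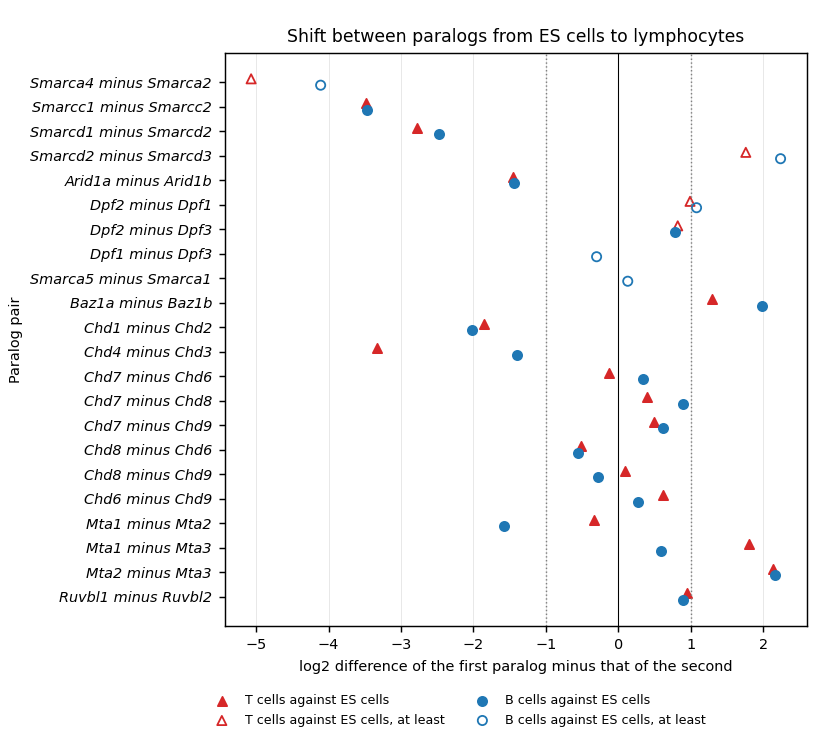
The log2 difference from ES cells of the first-named paralog minus that of the second, for T cells (triangles) and B cells (circles), with dotted lines at 2-fold and open symbols for lower bounds on the size of the shift. The 3 pairs at the top lie at or beyond -2.48 in both comparisons, and the 6 pairs among Chd6, Chd7, Chd8 and Chd9 all lie between the dotted lines.

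The core and PBAF subunits Smarcb1, Smarce1, Arid2, Pbrm1 and Phf10 of SWI/SNF were in none of the paralog pairs. On their brightest probe sets, Smarcb1 and Phf10 lay 2-fold or more below ES cells in T cells, and Smarce1, Arid2 and Pbrm1 were within 2-fold. Smarcb1, a core subunit lost in rhabdoid tumours, had signals of 2495 in ES, 1741 in B and 1038 in T cells, which was 2.4-fold lower in T cells, while its other probe set differed by -0.01. Smarce1, the HMG-box subunit, had signals of 2393 in ES, 1893 in B and 1992 in T cells. Among the subunits of the PBAF version, Arid2 had signals of 5484 in ES, 3690.3 in B and 3429 in T cells and Pbrm1, which carries the bromodomains, 2572 in ES, 3504 in B and 4386 in T cells. Both were within 2-fold in all comparisons, Arid2 below the ES cell level and Pbrm1 above it. Phf10, the PHD finger subunit of PBAF, had signals of 3050.3 in ES, 1579.8 in B and 1509.6 in T cells, 2.02-fold lower in T cells and 1.93-fold lower in B cells, on either side of the 2-fold line.

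Actl6a, the actin-related subunit of dividing cells, was 2.82-fold lower in T cells and 3.61-fold lower in B cells, with signals of 5986 in ES, 1660.2 in B and 2122 in T cells. Its 3 probe sets ranged from -1.50 to 0.06 and from -1.85 to 0.15 on the log2 scale. In the Dpf group of double PHD finger subunits, Dpf2, the broadly expressed form, had signals of 1370.1 in ES, 1384 in B and 1299 in T cells from its brightest probe set, and its second probe set differed by 1.92 and 2.04 on the log2 scale. Dpf1, a neuronal form, was above detection only in ES cells, with signals of 199 in ES, 8.1 in B and 38.1 in T cells, at least 2.1-fold lower in both lymphocytes. Dpf3, a form of muscle and neurons, had signals of 177 in ES, 104 in B and 59.9 in T cells. The minor forms of the group were thus highest in the ES cell array, at signals not far above the detection level.

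Bcl7a, a SWI/SNF subunit first known from a translocation in B cell lymphoma, was the member furthest below the B cell level in T cells. Its signals were 454 in ES, 1186 in B and 354 in T cells, 3.35-fold lower in T than in B cells and 2.61-fold higher in B than in ES cells. Its second measured probe set was below detection in T cells and gave a bound of -0.88 on the log2 scale between T and B cells, the same direction. Of the genes measured in T and B cells, 270 were lower still in T cells.

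Over the 19 measured SWI/SNF genes, 4 (21.1%) were higher and 6 (31.6%) lower in T cells by 2-fold or more, where 22.7% and 24.7% of all genes were. In B cells 5 (26.3%) were higher and 3 (15.8%) lower, against 21.1% and 24.6%. The family had median log2 differences of -0.36 and -0.34 beside -0.11 and -0.07 over all genes. From the list of 8 further SWI/SNF subunits, 2 were higher and 0 lower in each lymphocyte array by the same fold. Bicra, a subunit of the noncanonical GBAF complex, had signals of 106 in ES, 908 in B and 1096 in T cells, 10.3-fold and 8.57-fold higher. Its ES cell signal was close to the detection level of 95.0, which leaves the size of these folds uncertain. Its paralog Bicral was at 591, 1172 and 1263 in the same order, log2 differences of 1.10 and 0.99, and Bcl7b, a relative of Bcl7a, at 487, 1051 and 866.

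In the ISWI family the motors were lower and the accessory subunit Baz1a was higher in lymphocytes. Smarca5, the main ISWI ATPase, had signals of 9487 in ES, 4573 in B and 3736 in T cells, 2.54-fold and 2.07-fold lower from the brightest of 4 probe sets, 3 of which lay below ES cells, while 1, below detection in ES cells, lay at least 1.11 and 1.02 above on the log2 scale. Smarca1, the alternative ATPase known from neural tissue, had signals of 216 in ES, 25.9 in B and 5.9 in T cells and was at least 2.27-fold lower in both. Baz1a, which pairs with Smarca5 to space nucleosomes, had signals of 1458 in ES, 6275 in B and 3542 in T cells. It was 2.43-fold higher in T cells and 4.3-fold higher in B cells, and its second probe set differed by 2.01 and 2.94 on the log2 scale.

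The other ISWI partners differed less. Baz1b, deleted in Williams syndrome, had signals of 3026 in ES, 3297 in B and 2995 in T cells, so that Baz1a gained on it by 2.45-fold in T cells and 3.95-fold in B cells. Baz2a, the subunit that silences ribosomal RNA genes, was at 1967, 2222 and 2305 in ES, B and T cells. Bptf, the large subunit of the NURF complex, had signals of 3960.2 in ES, 8258 in B and 6708 in T cells, 2.09-fold higher in B cells with its 4 probe sets between 0.98 and 1.06 on the log2 scale. Of the 6 ISWI members, 1 (16.7%) was higher and 2 (33.3%) lower in T cells by 2-fold or more. In B cells 2 (33.3%) were higher and 2 (33.3%) lower. Of all genes, 22.7% and 24.7% were so in T cells, and 21.1% and 24.6% in B cells. Of 5 further ISWI genes, 1 was higher and 1 lower in each lymphocyte array by that fold. Baz2b was higher, with signals of 277 in ES, 2376 in B and 664 in T cells. It was 8.57-fold above ES cells in B cells and 3.58-fold lower in T than in B cells. Cecr2, a partner of ISWI ATPases in the embryo and germ line, was lower, with signals of 466 in ES, 172 in B and 25.4 in T cells.

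The CHD family held the member with the largest difference between T and B cells, Chd3. Chd3 and Chd4 are alternative ATPases of NuRD. Chd4 stayed near one level, with signals of 2343 in ES, 2817 in B and 2552 in T cells. Chd3 had signals of 211 in ES, 668 in B and 2309 in T cells, 10.9-fold above ES cells in T and 3.16-fold above them in B cells, and 3.46-fold higher in T than in B cells. Chd3 gained on Chd4 by 10.0-fold in T cells, 2.63-fold in B cells and 3.82-fold between T and B cells, all from 1 probe set of Chd3. Under quantile normalization the gain in B cells was below 2-fold, with Chd4 minus Chd3 at -0.97 on the log2 scale. Between T and B cells 362 of 11194 measured genes had a greater difference upward than Chd3. Macrophage markers had higher signals in T than in B cells too, 11 of 12 by 2-fold or more, with a median log2 difference of 1.29, and their part in the Chd3 value was not tested.

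Chd1 and Chd2 form the first CHD subfamily, and Chd1 is required for the open chromatin of ES cells. The signals of Chd1 were 891 in ES, 699.7 in B and 708 in T cells, within 2-fold, although other probe sets reached 1.16 in T cells and 1.5 in B cells on the log2 scale. Chd2 had signals of 1204 in ES, 3843 in B and 3438 in T cells, 2.85-fold and 3.19-fold higher, and its second probe set was higher too, by 2.00 and 1.58 on the log2 scale. On the brightest probe sets, Chd2 gained on Chd1 by 3.59-fold in T cells and 4.07-fold in B cells. The size of this gain depends on the probe set of Chd1. With the mean of all probe sets, Chd1 itself was at 0.33 in T cells and 0.35 in B cells on the log2 scale.

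The third subfamily, Chd6 to Chd9, showed small differences between its paralogs. Chd7, mutated in CHARGE syndrome, had signals of 399.8 in ES, 1070.1 in B and 620.3 in T cells, 2.68-fold higher in B cells. Chd6 was at 414, 876 and 704 in ES, B and T cells, 2.11-fold higher in B cells. Chd8, a regulator of Wnt target genes mutated in autism, was at 1538, 2222 and 1818 and Chd9 at 804, 1415 and 891. All 4 were highest in B cells on their brightest probe sets, but this depended on the probe set. The second probe set of Chd7 was highest in T cells, with signals of 415 in ES, 748 in B and 831 in T cells, and the other 2 of Chd9 were level between T and B cells and differed from ES cells by up to 1.41 in T cells. Other probe sets of Chd8 reached 1.92 and 2.06. The 6 pairs of the subfamily shifted by -0.52 to 0.62 in T cells and by -0.55 to 0.89 in B cells on the log2 scale, and several of these signs turned with the mean of all probe sets.

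The Mta proteins are the NuRD scaffolds that hold the histone deacetylases. Mta1 had signals of 747 in ES, 468 in B and 906 in T cells and was 1.93-fold higher in T than in B cells. Mta2 had signals of 851 in ES, 1594 in B and 1311 in T cells, within 2-fold in all comparisons. Mta3, a NuRD subunit known from germinal centre B cells, had signals of 2875 in ES, 1202 in B and 1004 in T cells on its brightest probe set, 2.86-fold and 2.39-fold lower in T and B cells. Another probe set of Mta3 had signals of 534 in ES, 2042 in B and 1939.7 in T cells, the opposite direction, with log2 differences of 1.86 and 1.93. The direction of Mta3, and of its shifts against Mta1 and Mta2, therefore rests on the choice of probe set and is not settled by these data.

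Over all 11 CHD and Mta genes, 2 (18.2%) were higher and 1 (9.09%) lower in T cells by 2-fold or more, against 22.7% and 24.7% of all genes, and 4 (36.4%) higher and 1 (9.09%) lower in B cells, against 21.1% and 24.6%. The lower gene is Mta3, with its unsettled direction. The family had median log2 differences of 0.28 and 0.81 beside the same -0.11 and -0.07. The 11 further CHD and NuRD genes had 1 higher and 4 lower in each lymphocyte array by that fold, with median log2 differences of -0.69 and -0.62. The methyl-binding paralogs of NuRD went opposite ways: Mbd2, which binds methylated DNA, had signals of 602 in ES, 2872 in B and 4384 in T cells, 7.28-fold and 4.77-fold higher. Mbd3, which mostly lacks that binding, had signals of 2561 in ES, 841 in B and 694 in T cells, 3.69-fold and 3.05-fold lower.

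The members furthest below ES cells were Hells, Ruvbl2 and Ruvbl1 in T cells, and Hells, Ruvbl2 and Actl6a in B cells. Hells, a SNF2-type ATPase needed for DNA methylation at repeats and known from dividing cells, had signals of 6553 in ES, 874 in B and 648 in T cells. It was 10.1-fold lower in T cells and 7.5-fold lower in B cells, where 394 and 606 measured genes were lower still. Its 2 other measured probe sets were lower as well, one by a similar size (-3.02 and -3.01) and one less (-0.81 and -1.19). Atrx, which deposits histone H3.3 with Daxx at repeats and telomeres, had signals of 8582 in ES, 5784 in B and 7146 in T cells, within 2-fold on its brightest probe set, and its 7 probe sets ranged from -0.71 to 1.24 in T cells and from -1.74 to -0.47 in B cells.

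Ruvbl1 and Ruvbl2 are AAA-type ATPases that form one ring shared by the INO80, SRCAP and TIP60 complexes. Ruvbl1 had signals of 3916 in ES, 1099.7 in B and 942 in T cells, 4.15-fold and 3.56-fold lower in T and B cells. Ruvbl2 had signals of 4617 in ES, 698 in B and 575 in T cells, 8.03-fold and 6.61-fold lower. Both partners of the ring were lower together, while Ino80, the ATPase that gives the complex its name, was at 764, 1089.6 and 1046 in ES, B and T cells, within 2-fold. Each Ruvbl gene was read from 1 probe set. Of 23 further INO80, SRCAP and TIP60 genes, 1 was higher and 3 lower in T cells by 2-fold or more, and 5 higher and 2 lower in B cells. Of all measured genes, 22.7% and 24.7% were so in T cells, and 21.1% and 24.6% in B cells. Ep400, the ATPase of TIP60, had signals of 1529.6 in ES, 3994 in B and 2797 in T cells. Znhit1, a subunit of SRCAP, had signals of 2119 in ES, 847 in B and 866 in T cells, 2.45-fold and 2.5-fold lower, and Mcrs1, a subunit of INO80, was at 2083, 1179 and 852 in ES, B and T cells.

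The promoters of Hells and Ruvbl2, the 2 members lowest in lymphocytes against ES cells, are shown with their motif matches in capitals. Hells lies on the plus strand with its window at chr19:38930740-38930989, and Ruvbl2 on the minus strand at chr7:45434465-45434714. The words searched on both strands were the E-box CACGTG, the E2F words TTTCCCGC, TTTGGCGC and TTTCGCGC, the ETS word CCGGAAGT and the CCAAT box, CCAAT. The capitals in Hells mark 1 E2F word and those in Ruvbl2 mark CCAAT on either strand.
Hells: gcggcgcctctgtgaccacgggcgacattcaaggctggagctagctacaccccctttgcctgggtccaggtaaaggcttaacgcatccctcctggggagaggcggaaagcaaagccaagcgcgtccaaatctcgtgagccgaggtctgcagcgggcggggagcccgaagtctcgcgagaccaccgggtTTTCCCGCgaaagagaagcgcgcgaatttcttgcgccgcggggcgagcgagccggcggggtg
Ruvbl2: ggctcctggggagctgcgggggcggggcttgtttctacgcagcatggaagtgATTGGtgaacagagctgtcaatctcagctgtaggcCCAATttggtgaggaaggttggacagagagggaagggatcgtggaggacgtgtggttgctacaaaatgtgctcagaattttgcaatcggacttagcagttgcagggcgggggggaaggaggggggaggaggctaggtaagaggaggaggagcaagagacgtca

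Promoters of 33 of the 42 members matched the RefSeq table by symbol, with 36 windows between them. Their median GC content was 65.8% and their median observed to expected CpG ratio 0.88, against 57.6% and 0.61 over 18109 windows of genes on the array. An E2F word was in 8.33% of the member windows, those of Arid1a, Hells and Smarcd1, and in 1.53% of all 32851 windows of that length. The CCAAT box was in 36.1% against 33.8%, including Ruvbl1 and Ruvbl2, the E-box in 5.56% against 6.02%, in Bptf and Pbrm1, and the ETS word in 2.78% against 2.88%, in Mta2. With 36 windows these shares rest on 1 to 13 genes, and a match describes letters in the window and no binding. The motif shares were set against all windows, not only those of genes on the array, and windows were not matched for GC content.

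Genes of cell division lay below ES cells in lymphocytes, as Hells and the Ruvbl pair did. All 17 measured genes of replication and mitosis had signals 2-fold or more below ES cells in T cells, and 15 of 17 in B cells, with median log2 differences of -2.60 and -2.19, while 7 reference genes had medians of -0.06 and 0.00. Among the 12 other SNF2-type ATPases, 6 lay 2-fold or more below ES cells and 1 above in T cells, and in B cells 5 of 11 lay below and 0 above. Beside these stand 24.7% of all genes below and 22.7% above in T cells, and 24.6% and 21.1% in B cells. They included Ercc6l, a mitotic helicase, with signals of 1726 in ES, 416 in B and 271 in T cells, Rad54l, a recombination repair ATPase, at 897, 360.1 and 155 in ES, B and T cells, and Smarcad1, which acts in chromatin replication, at 3860.1, 811 and 681. The part of cell division in the remodelling gene values was not tested, and it cannot be told apart from cell type with these 3 arrays.

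Between T and B cells the remodelling genes differed little on their brightest probe sets. Of 38 measured members, 1 (2.63%), Chd3, was higher in T cells by 2-fold or more and 1 (2.63%), Bcl7a, lower by 2-fold or more, against 8.89% and 6.32% of 11194 genes. At 4-fold there were 0 members in either direction, against 2.49% and 1.85% of all genes. Within 2-fold lay 36 members (94.7%), where 84.8% of all genes did, and the median log2 difference was -0.18 beside -0.05 over all genes. The 3 paralog shifts past 2-fold were those of Chd3 over Chd4, of Mta1 over Mta2 and of Mta1 over Mta3, 1.23 and 1.21 on the log2 scale for the Mta pairs. Of 57 measured further remodelling genes, 0 were higher and 2 (3.51%), Baz2b and Rad54l, lower in T cells by that fold.

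How the arrays were set to a common scale changed the balance of the calls. Scaling to the 75th percentile moved the median log2 difference of all genes from -0.11 to -0.41 in T cells and from -0.07 to -0.37 in B cells, and quantile normalization moved it to -0.26 and -0.22. Under the 75th percentile, 5 members were higher and 14 lower in T cells, without Baz1a and Smarcd2 among the higher, and 9 were higher and 12 lower in B cells, without Bptf and Chd6. Small differences changed sign: of the differences within 2-fold, 10 turned under the 75th percentile and 6 under quantile normalization, among them those of Chd4, Chd9, Baz1b and Baz2a, with values of at most 0.28. The higher share of all called genes went from 48.0% to 34.5% in T cells and from 46.2% to 34.3% in B cells.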

How the data were processed

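The deposited values are probe set intensities on a linear scale, 45037 per array of a mouse 3′ expression array, made by the authors with Affymetrix Expression Console per the submitters' processing notes. The sources used here do not give the summarization method or scaling target. The columns had nearly equal 2% trimmed means of 497.3 (ES cells), 497.8 (B cells) and 497.7 (T cells), so a general change in mRNA per cell would not be seen. Per the platform annotation, 34945 probe sets had 1 gene symbol, 932 several and 9160 none, and the first kind was used, with the brightest probe set standing for a gene. Signals below 95.0, the 50th percentile of all values, were raised to it, and differences of log2 intensity were taken with Python 3.11.15, numpy 2.4.6 and pandas 2.3.3, after a check on simulated data. A gene was measured where 1 or both arrays of a comparison exceeded that level, and called at 2-fold, with 4-fold beside it. Named were all members, and further remodelling genes past 4-fold or among the 2 with the greatest difference of their list against ES cells. With 1 array per population, the number of arrays limits the precision and no test was run. The members, gene lists and paralog pairs were chosen with earlier results of these data known. Alternatives were 2 normalizations, 2 other detection rules, 2 other uses of the probe sets, the 4-fold threshold and, chosen after seeing the data, leaving out probe sets whose names end in _s_at or _x_at. Promoter windows came from RefSeq on GRCm38.p6.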

Additional observations from a re-analysis of the deposited data

How the results depend on the processing

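Of 720 member log2 differences recomputed under the alternatives, 692 moved by less than the SD of the probe set disagreement, 24 moved by more, and 4 past 2-fold reversed. Of 300 paralog shifts, 283 moved by less, 13 by more, and 4 past 2-fold reversed. Part of this stability was fixed by the alternatives themselves. Scaling to a percentile shifts a comparison by a nearly constant amount, here smaller than that SD, and cancels in paralog shifts. All its 120 differences and 50 paralog shifts thus counted as moving by less. Leaving out probe sets by name could change only Baz2a, Mta3 and the pairs of Mta3. The totals therefore overstate how far the values were tested. The reversals past 2-fold all involve Mta3. Within 2-fold, 31 differences of at most 0.35 and 14 paralog shifts of at most 0.62 changed sign. With the mean of all probe sets, Mta3 was at 0.30 in T cells and 0.57 in B cells against ES cells, and Mta1 minus Mta3 at -0.16 in T cells. Without probe sets of names ending in _s_at or _x_at, an alternative chosen after seeing the data, Mta3 was at 1.86 and 1.93, Mta1 minus Mta3 at -1.58 in T cells, and Mta2 minus Mta3 at -1.24 in T cells and -1.03 in B cells.

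Counts of members changed as follows. With the mean of all probe sets, those below detection included, 5 members were at least 2-fold lower than ES cells in T cells, 5 in B cells and 4 in both. Under that rule 0 were lower in T than in B cells. When every probe set of a gene had to pass, those below detection included, 3 were lower in T cells, 4 in B cells and 3 in both, 6 were higher in B cells, and 0 were lower in T than in B cells, since this rule can only remove calls. With no detection level and 16 added, 2 were higher and 2 lower in T than in B cells, and over all genes the higher share of calls there was 44.5% in place of 58.5%. At 4-fold, 2 were higher and 3 lower in T cells, 3 higher and 2 lower in B cells, 2 lower and 1 higher in both, and 0 either way between T and B cells. Quantile normalization and a detection level at the 65th percentile left every count within 1.5 times, but not every gene: the first lost the calls of Phf10 in T cells (-0.97), Chd6 in B cells (0.76) and Smarca5 in B cells (-0.76), and the second those of Dpf1 and Smarca1 and, in T cells, Smarcd1. Except where the rule itself removes calls, the cause of a change was not tested.

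No paired analysis was possible because each population has 1 array. Smarcd3, Dpf1, Dpf3, Smarca1, Smarcd1 in T cells and, in ES cells, Smarca2, Smarcc2 and Bicra lie near or under the detection level, where the array cannot set the size of a difference.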
